A study of Mus musculus with 6 samples.

Results

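Phosphatases, Sproutys and ETV transcription factors whose transcripts report the activity of the ERK MAP kinase pathway were examined in mouse embryonic fibroblasts (MEFs) that had migrated through narrow pores. They are Dusp1, Dusp4, Dusp5, Dusp6, Spry1, Spry2, Spry4, Etv1, Etv4 and Etv5, chosen by name with earlier results of these data known. Their Ensembl gene identifiers gave 10 of the 55335 genes in the deposited table. RNA-seq was performed on wild-type (WT) MEFs, an adherent connective tissue cell grown here in DMEM with fetal bovine serum. The Confine group was collected after crossing a Transwell membrane of 3 μm pore size within 15 h, and the Ctrl group was the parental MEFs, which had not crossed a membrane. The comparison asks which transcripts differ in cells that passed through confinement, and parental cells that were seeded on a membrane without crossing it were not analysed here. The paper's Transwell method, given for another pore size, seeded cells in serum-free medium above medium with serum. Selection of cells, contact with the membrane, passage through the pore and any difference in serum therefore cannot be told apart. Confine replicates 1 and 2 were deposited with equal counts for every gene, so they entered as a single library, called Confine replicate 2, leaving 3 Ctrl and 2 Confine libraries. No source used here says that the libraries came from separate cultures, so p-values rest on the spread between these libraries, which may be technical. The test used here also draws each gene's spread toward that of other genes.

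In the ERK pathway, receptor tyrosine kinases activate RAS, RAF, MEK and then ERK, and active ERK raises the transcription of its own inhibitors. Dual-specificity phosphatases (DUSPs) remove the activating phosphates from ERK and related MAP kinases, and Sproutys act further upstream, between the receptor and RAF. ETV factors of the PEA3 group are DNA-binding proteins of the ETS family whose transcripts rise with the same signal, and in fibroblasts growth factors and serum are its usual triggers.

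Most of the ERK feedback genes that could be tested were higher in Confine cells. Dusp1, Dusp5, Dusp6, Spry2, Etv1 and Etv4 rose, by between 1.67-fold for Dusp6 and 3.99-fold for Etv1, and none of the 10 genes passed the test as lower. Etv5 was 1.54-fold higher but did not pass. Spry4 stayed near 1 normalized CPM (counts scaled to a common TMM-adjusted library size) in both groups, and Dusp4 and Spry1 had too few reads to be tested. The test was edgeR's quasi-likelihood test over all 15881 genes kept by the filter on low counts, with Benjamini-Hochberg adjustment, and a gene passed at an adjusted p under 0.05. Thus 6 of the 8 tested genes passed as higher, where 12.8% of all tested genes did, and 0 passed as lower, where 10.2% of all tested genes did. The count of 0 lower was the same at an unadjusted p under 0.05 and with DESeq2 and limma-voom. The median log2 fold change of the 8 genes was 1.03, beside 0 for all tested genes. Because the genes were chosen with earlier results of these data known, these comparisons are descriptions and not an independent test. When library size alone was used in place of the TMM normalization, the median of all genes moved to -0.21, the share of higher genes among those that passed fell from 55.7% to 34%, and 5 of the 8 genes passed as higher. Without Confine replicate 3, 4 of the 8 passed, where 7.22% of all tested genes did, and without Confine replicate 2, 5 passed, where 8.44% did. These are bulk samples, so a higher share of cells with a transcript and more transcript per cell cannot be told apart.

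**Figure D1:**
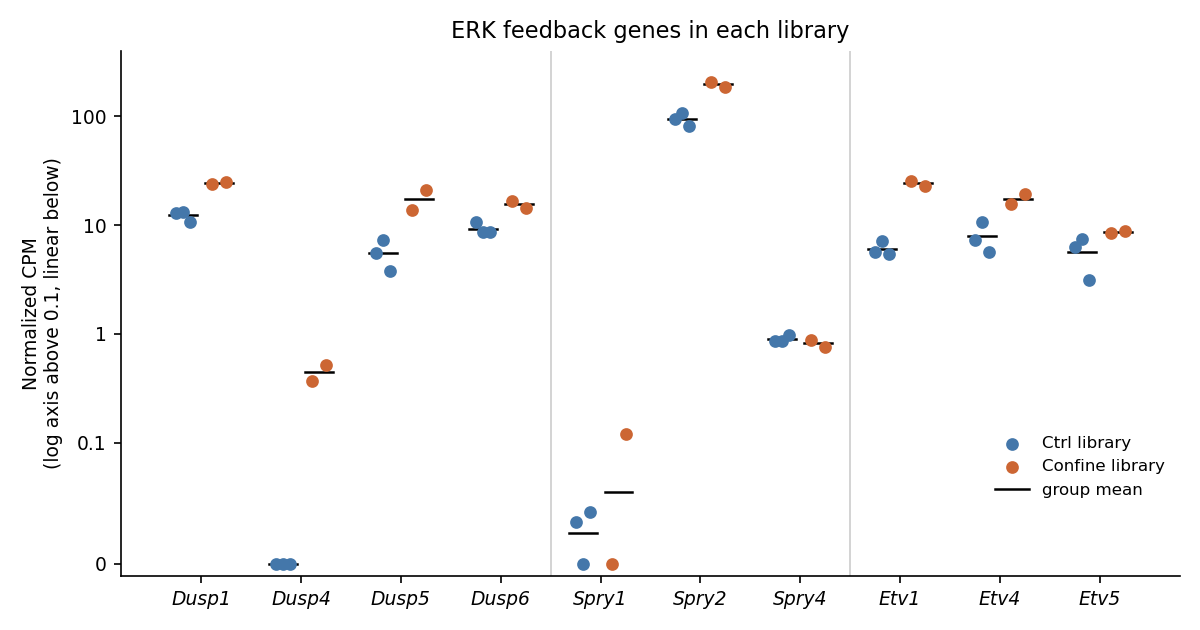
Level of each of the 10 ERK feedback genes in every library, in normalized CPM (counts scaled to a common TMM-adjusted library size) on an axis that is logarithmic above 0.1 and linear below. Points are libraries (3 Ctrl, 2 Confine) and lines are group means. The Confine points lie above the Ctrl points for Dusp1, Dusp4, Dusp5, Dusp6, Spry2, Etv1, Etv4 and Etv5, and the groups overlap for Spry1 and Spry4.

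The DNA around the transcription start sites of the genes is shown for Dusp1, Dusp5 and Spry2, because these 3 genes rose and their windows hold sequence letters of motifs linked to signal-driven transcription. RefSeq start sites (GRCm38.p6) were available for 7 of the 10 genes with 9 windows of 250 bases before to 50 bases after the start, and 4 of the 9 windows held any of the motifs searched on both strands. The share of all promoter windows that hold any of the motifs was not counted, so this number has no background beside it. The motifs were the AP-1 element TGANTCA, found in 7.81% of all 32851 promoter windows, the cyclic AMP response element TGACGTCA, found in 1.79%, the ETS core CCGGAA, found in 14.9%, the hypoxia-factor core ACGTG, found in 19.6%, and the CArG box bound by serum response factor, found in 1.63%. In the sequences, written 5′ to 3′ on the strand of the gene, capitals mark these matches. The Dusp1 window is chr17:26508423-26508722 on the minus strand, the Dusp5 window is chr19:53528895-53529194 on the plus strand, and the Spry2 window is chr14:105896770-105897069 on the minus strand.
Dusp1: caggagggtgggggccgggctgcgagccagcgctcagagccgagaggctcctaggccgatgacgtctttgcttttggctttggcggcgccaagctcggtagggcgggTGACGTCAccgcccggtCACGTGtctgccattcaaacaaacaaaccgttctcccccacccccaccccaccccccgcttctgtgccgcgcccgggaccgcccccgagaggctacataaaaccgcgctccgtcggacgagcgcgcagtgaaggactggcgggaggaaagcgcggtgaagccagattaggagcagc
Dusp5: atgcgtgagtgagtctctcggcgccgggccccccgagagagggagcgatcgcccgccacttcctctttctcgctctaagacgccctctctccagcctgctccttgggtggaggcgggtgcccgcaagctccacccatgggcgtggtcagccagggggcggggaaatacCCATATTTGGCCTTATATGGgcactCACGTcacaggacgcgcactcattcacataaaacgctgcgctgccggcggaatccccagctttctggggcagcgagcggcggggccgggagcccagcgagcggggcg
Spry2: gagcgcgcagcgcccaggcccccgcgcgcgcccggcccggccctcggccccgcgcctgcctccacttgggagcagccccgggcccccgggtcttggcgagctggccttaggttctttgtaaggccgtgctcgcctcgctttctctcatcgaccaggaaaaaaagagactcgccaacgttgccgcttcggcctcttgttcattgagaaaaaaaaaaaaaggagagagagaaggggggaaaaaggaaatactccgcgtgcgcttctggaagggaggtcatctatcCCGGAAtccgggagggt
The Dusp1 window holds TGACGTCA with its first base at position -143 from the start site, followed by CACGTG, in which ACGTG matches on both strands in overlapping positions. The Dusp5 window holds 2 CArG boxes side by side, CCATATTTGG at -82 and CCTTATATGG at -72, and a reverse match to ACGTG at -57. The Spry2 window holds CCGGAA at position 33 after the start. The windows of Dusp6 and Spry1, both windows of Etv1 and 1 of the windows of Etv5 held none of these letters, and the other Etv5 window held ACGTG at -133. A match describes the sequence only and was not tested as a binding site.

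Among the phosphatases, Dusp1 encodes a nuclear enzyme that acts on ERK and on the stress-activated MAP kinases. Dusp1 (chr17:26505590-26562128, minus strand, GRCm38) had 375, 349 and 249 counts in Ctrl and 703 and 632 counts in Confine. Both Confine libraries were above every Ctrl library, as they were for 25.9% of all tested genes, while 23.6% of all tested genes had both Confine libraries below every Ctrl library. On the CPM scale (counts scaled to a common TMM-adjusted library size), the mean was 12.2 ± 1.44 normalized CPM (SD, n = 3) in Ctrl and 24.4 ± 0.949 (SD, n = 2) in Confine. Dusp1 thus rose 1.99-fold (95% interval 1.5 to 2.65), a log2 fold change of 0.99 (SE 0.20, edgeR quasi-likelihood adjusted p = 0.000943). Dusp1 shares 11 exon bases with Ergic1 on the opposite strand, which averaged 4081.4 counts per library against 461.6 for Dusp1, and the effect of that overlap on Dusp1 was not tested.

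Dusp5, a nuclear phosphatase selective for ERK, changed most among the phosphatases that were tested. Dusp5 (chr19:53529109-53542431, plus strand) had 160, 191 and 89 counts in Ctrl and 407 and 534 counts in Confine. Both Confine libraries exceeded each Ctrl library, although they differed from each other more than for the other phosphatases. Its mean was 5.51 ± 1.72 normalized CPM (SD, n = 3) in Ctrl and 17.5 ± 5.27 (SD, n = 2) in Confine. This is a rise of 3.16-fold (95% interval 2.15 to 4.65), or 1.66 on the log2 scale (SE 0.26, edgeR adjusted p = 0.000134). With each library left out in turn it lay between 1.31 and 1.94. An antisense gene, AC137853.2, shares 547 exon bases with Dusp5 and averaged 3.4 counts per library against 276.2 for Dusp5.

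Dusp6, the cytoplasmic phosphatase selective for ERK and a widely used readout of the pathway, changed less. Dusp6 (chr10:99263231-99267489, plus strand) had 308, 229 and 202 counts in Ctrl and 498 and 357 counts in Confine. The groups did not overlap, with means of 9.30 ± 1.17 normalized CPM (SD, n = 3) in Ctrl and 15.5 ± 1.87 (SD, n = 2) in Confine. Dusp6 rose 1.67-fold (95% interval 1.22 to 2.27), with a log2 fold change of 0.74 (SE 0.21, edgeR adjusted p = 0.0165). This call was lost without Confine replicate 2 (log2 fold change 0.61, edgeR adjusted p = 0.177), without Confine replicate 3 (0.85, edgeR adjusted p = 0.0514) and with library size alone (0.53, edgeR adjusted p = 0.0756).

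Dusp4, a nuclear phosphatase related to Dusp1, was read in the Confine libraries but not in the Ctrl libraries. Dusp4 (chr8:34807297-34819894, plus strand) had 0 counts in each of the 3 Ctrl libraries and 11 and 13 counts in the Confine libraries, or 0.372 and 0.516 normalized CPM. Set against a floor of 3 counts over the Ctrl group, which is the limit that a count of 0 allows, Dusp4 was at least 11.5-fold higher in Confine, a bound that takes its 24 Confine counts as exact. With counting error in both groups the lower 95% limit of the ratio was 8.67-fold. The filter on low counts did not keep Dusp4. When no filter was applied it passed with edgeR (adjusted p = 0.000468), and it passed with DESeq2 (adjusted p = 0.00519). Leaving out the filter also moved edgeR adjusted p-values of other genes, for Etv1 from 1.48e-06 to 4.14e-16 and for Elf4 from 0.0268 to 0.0395. The unfiltered value for Dusp4 therefore cannot be set beside those of the main test.

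The Sproutys differed from each other in level more than the other families did. Spry2 is an inhibitor of signalling from growth factor receptors, and it was the most abundant transcript of the 10 by far. Spry2 (chr14:105891947-105896819, minus strand) had 2715, 2836 and 1927 counts in Ctrl and 6152 and 4655 counts in Confine. The groups were well apart, with means of 94.3 ± 12.6 normalized CPM (SD, n = 3) in Ctrl and 196 ± 16.3 (SD, n = 2) in Confine. Spry2 therefore rose 2.08-fold (95% interval 1.60 to 2.71), a log2 fold change of 1.06 (SE 0.18, edgeR adjusted p = 0.000269). With each library left out in turn it stayed between 0.95 and 1.16 and passed each time, with edgeR adjusted p-values from 0.000176 to 0.0118.

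Spry4, another Sprouty, was read at a low level in both groups. Spry4 (chr18:38586247-38601415, minus strand) had 25, 23 and 23 counts in Ctrl and 26 and 19 counts in Confine. The groups overlapped, with means of 0.904 ± 0.0645 normalized CPM (SD, n = 3) in Ctrl and 0.816 ± 0.0877 (SD, n = 2) in Confine. Spry4 had a log2 fold change of -0.14 (SE 0.46, edgeR adjusted p = 0.866), and the 95% interval from -1.12 to 0.83 includes a change of 1.78-fold upwards. Spry1 (chr3:37639947-37644598, plus strand) had 1, 0 and 1 counts in Ctrl and 0 and 3 counts in Confine. These Spry1 counts were at or under the floor in each library, so no fold change is given, and a difference was not detectable at this depth. Spry1 also shares 710 exon bases with Gm42922 on the opposite strand, which averaged 0 counts per library against 1.0 for Spry1. The effect of that overlap on Spry1 was not tested.

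Of the ETV factors, which bind DNA through the ETS domain, Etv1 changed most. Etv1 (chr12:38779380-38870484, plus strand) had 162, 188 and 127 counts in Ctrl and 755 and 571 counts in Confine. Each Confine library had at least 3 times the normalized CPM of any Ctrl library, and the means were 6.03 ± 0.933 normalized CPM (SD, n = 3) in Ctrl and 24.1 ± 2.01 (SD, n = 2) in Confine. Etv1 rose 3.99-fold (95% interval 2.93 to 5.42), a log2 fold change of 2.00 (SE 0.21, edgeR adjusted p = 1.48e-06). With each library left out it lay between 1.91 and 2.13. Among the transcripts of other genes, Gm5454 matches Etv1 over 1453 bases at 98.2% identity and averaged 33.4 counts per library against 360.6 for Etv1, so reads could be split between them and the Etv1 values are uncertain to that extent.

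Etv4 (chr11:101769742-101785371, minus strand) had 213, 284 and 132 counts in Ctrl and 466 and 480 counts in Confine. The Confine libraries were both above the Ctrl libraries, among which replicate 2 was the highest. Its mean was 7.90 ± 2.60 normalized CPM (SD, n = 3) in Ctrl and 17.4 ± 2.34 (SD, n = 2) in Confine. The rise was 2.20-fold (95% interval 1.53 to 3.15), or 1.14 on the log2 scale (SE 0.25, edgeR adjusted p = 0.00237). The call was lost without Confine replicate 3 (log2 fold change 0.99, edgeR adjusted p = 0.057).

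Etv5 had the least change of the 3 ETV factors. Etv5 (chr16:22381309-22439719, minus strand) had 182, 195 and 74 counts in Ctrl and 249 and 223 counts in Confine. The groups did not overlap, and Ctrl replicate 3 was well below the other Ctrl libraries, which gave means of 5.6 ± 2.19 normalized CPM (SD, n = 3) in Ctrl and 8.63 ± 0.312 (SD, n = 2) in Confine. Etv5 had a log2 fold change of 0.62 (SE 0.29, 95% interval 0.01 to 1.23), which had a p of 0.0482 in edgeR's quasi-likelihood test before and 0.142 after adjustment. Etv5 passed without Ctrl replicate 2 (log2 fold change 0.86, edgeR adjusted p = 0.045), and without Ctrl replicate 3 its log2 fold change was 0.32 (edgeR adjusted p = 0.444). The 95% intervals of Etv1 and Etv5 do not overlap, but the difference between the genes was not tested. Etv5 has a near-identical copy, Gm4798 (98.6% identity over 1700 bases), which averaged 0.6 counts per library against 184.6 for Etv5.

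**Figure D2:**
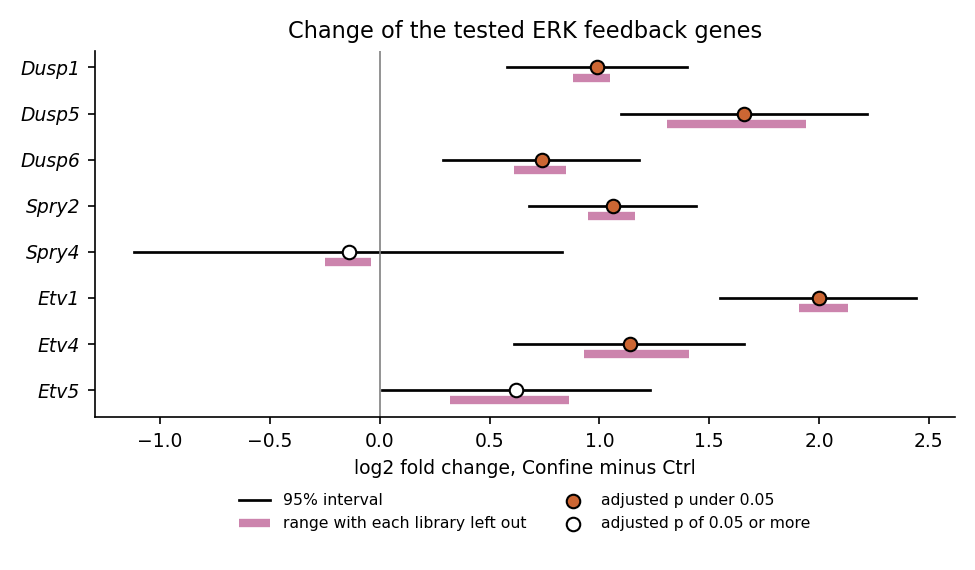
Log2 fold change (Confine minus Ctrl) of the 8 ERK feedback genes tested, with the 95% interval (black line) and the range when each library was left out in turn (pink bar). Filled points passed at an adjusted p under 0.05 and open points did not. Etv1 (2.00) and Dusp5 (1.66) lie farthest to the right, and the interval of Spry4 spans 0.

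With the additional requirement of an absolute log2 fold change above 1.5, Dusp5 and Etv1 remained, 2 of the 8 tested genes, where 4.89% of all tested genes did as higher and 3.11% as lower. For a single gene the 3 Ctrl and 2 Confine libraries cannot reach p < 0.05 in a two-sided exact permutation test, since the smallest p this design allows is 0.1. That smallest value was reached by Dusp1, Dusp4, Dusp5, Dusp6, Spry2 and Etv1 on the log2(normalized CPM + 1) scale, and Etv4 and Etv5 each gave an exact permutation p = 0.2.

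To compare levels between genes, normalized CPM were divided by the length of each gene's merged exons in kb. By this scale Spry2 was at 45.2 ± 6.05 per kb in Ctrl and 94.1 ± 7.80 per kb in Confine, and it made up between 74.0% and 78.6% of the summed level of the 10 genes in every library. Below it in Ctrl came Dusp1 (3.70 ± 0.434 per kb), Dusp6 (2.97 ± 0.372), Etv4 (2.55 ± 0.839), Dusp5 (2.23 ± 0.694) and Etv5 (1.37 ± 0.535), and each neighbour in this order overlapped the next over libraries. Etv1, at 0.454 ± 0.0701 per kb in Ctrl, was separate from Etv5 above it and from Spry4 (0.190 ± 0.0136) below it. In Confine the order after Spry2 was Dusp1 (7.38 ± 0.287 per kb), Dusp5 (7.07 ± 2.13), Etv4 (5.61 ± 0.755) and Dusp6 (4.95 ± 0.598), again with each overlapping the next. Etv5 (2.1 ± 0.0761 per kb in Confine) and Etv1 (1.81 ± 0.151) followed and did not overlap each other, and Spry4 (0.172 ± 0.0184) and Dusp4 (0.162 ± 0.0373) lay about 10 times lower and overlapped. Thus Etv1 had the largest change of the tested genes from one of their lowest levels per kb, over merged exons of 13296 bases. That rank depends on the length. Before division by it, the Ctrl mean of Etv1 (6.03 normalized CPM) was above those of Etv5 (5.6), Dusp5 (5.51) and Spry4 (0.904). It was below those of Spry2, Dusp1, Dusp6 and Etv4. In normalized CPM the sum of the 10 genes was between 120 and 162 in the Ctrl libraries and was 297 and 313 in the Confine libraries, without overlap.

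**Figure D3:**
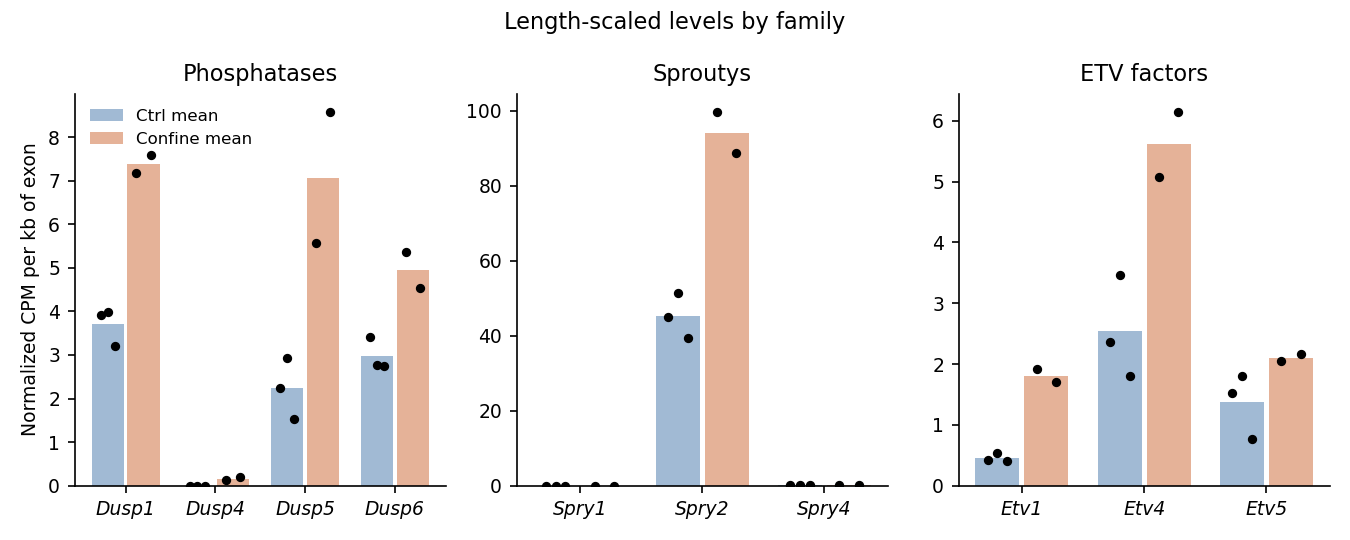
Level per kb of merged exon (normalized CPM per kb, linear axes that start at 0 and differ between panels) for the phosphatases, Sproutys and ETV factors. Bars are group means and points are libraries (3 Ctrl, 2 Confine). Spry2 stands at 45.2 in Ctrl and 94.1 in Confine, while the highest mean of the other genes is 7.38 for Dusp1 in Confine.

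Other genes of the pathway were grouped in 5 lists, also chosen with earlier results of these data known. The other feedback inhibitors had the median nearest to that of the ERK feedback genes. Of these 6 inhibitors, each tested, 4 rose, where 12.8% of all tested genes did, and the median log2 fold change was 1.08. As lower, 0 passed by edgeR's quasi-likelihood test (10.2% of all tested genes did), DESeq2 or limma-voom, and 1, Il17rd, was lower at an unadjusted p under 0.05. Errfi1, an inhibitor of the epidermal growth factor receptor, had 239, 288 and 199 counts in Ctrl and 2563 and 2082 counts in Confine. This is a 9.19-fold rise (log2 fold change 3.20, SE 0.19, edgeR adjusted p = 1.27e-09), the largest in the 5 lists. Lrig1, which promotes the loss of growth factor receptors from the cell, rose 2.28-fold (edgeR adjusted p = 0.00013). Spred3 and Spred2 belong to a family related to the Sproutys that restrains RAS, and they rose 2.21-fold (edgeR adjusted p = 0.000394) and 2.04-fold (edgeR adjusted p = 0.00511). The call for Spred2 was lost without Confine replicate 3 (log2 fold change 1.01, edgeR adjusted p = 0.0543). The remaining genes of this list, named after their values were seen, were Spred1 with a log2 fold change of 0.48 (edgeR adjusted p = 0.0849) and Il17rd with -0.97 (edgeR adjusted p = 0.0622). The list's count of lower genes was 1 with library size alone, with no filter, without Ctrl replicate 1 and without Ctrl replicate 3. In these settings 2805, 1786, 1186 and 1624 of all genes passed as lower.

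Of the other MAP kinase phosphatases, 1 of 5 tested rose, where 12.8% of all tested genes did. As lower, 0 passed with edgeR (10.2% of all tested genes did), DESeq2 or limma-voom or at an unadjusted p under 0.05, and the median log2 fold change was -0.13. The gene that rose was Dusp10, an enzyme directed at the stress-activated MAP kinases, which had 227, 284 and 239 counts in Ctrl and 649 and 569 counts in Confine. The rise was 2.32-fold (log2 fold change 1.22, SE 0.21, edgeR adjusted p = 0.00024). Without Ctrl replicate 2, 2 genes of this list passed as higher, where 15.5% of all tested genes did.

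The 10 other transcripts used as readouts of ERK moved in both directions, with 2 higher, 3 lower and a median log2 fold change of 0.28. Of all tested genes, 12.8% passed as higher and 10.2% as lower. Ier3, an immediate early gene, had 5602, 4082 and 4270 counts in Ctrl and 35459 and 31310 counts in Confine, a rise of 6.92-fold (edgeR adjusted p = 2.92e-09). Fosl1, an AP-1 subunit of the FOS family, had 672, 291 and 320 counts in Ctrl and 3351 and 2710 counts in Confine, a rise of 6.91-fold (edgeR adjusted p = 1.64e-07). Both were far above their Ctrl libraries in each Confine library. In contrast Fos, the immediate early AP-1 subunit that follows serum within minutes, had 961, 253 and 452 counts in Ctrl and 61 and 105 counts in Confine. Its log2 fold change was -2.74 (SE 0.42, edgeR adjusted p = 8.1e-05), with Ctrl replicate 1 the highest library, and -2.22 without that library. Epha4, an ephrin receptor, had 61, 49 and 26 counts in Ctrl and 21 and 5 counts in Confine (log2 fold change -1.86, edgeR adjusted p = 0.0166). Its call was lost without Ctrl replicate 1 (log2 fold change -1.67, edgeR adjusted p = 0.0517) and without Confine replicate 3 (-1.25, edgeR adjusted p = 0.187), and its log2 fold change was -3.06 without Confine replicate 2. Ccnd1, the cell cycle regulator cyclin D1, fell by 0.67 on the log2 scale (edgeR adjusted p = 0.0202), a call lost without Ctrl replicate 1 (log2 fold change -0.59, edgeR adjusted p = 0.074) and without Confine replicate 2 (-0.51, edgeR adjusted p = 0.226). Phlda1 had a log2 fold change of 0.71 (edgeR adjusted p = 0.0957) and 1.08 without Ctrl replicate 2, where it passed (edgeR adjusted p = 0.0074). Epha2 had -0.08 (edgeR adjusted p = 0.853).

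In the core of the cascade, 1 of 19 genes from the adaptors to ERK rose (5.26%, beside 12.8% of all tested genes) and the median log2 fold change was -0.11. As lower, 0 passed with edgeR (10.2% of all tested genes did), DESeq2 or limma-voom, and 1, Gab1, had an unadjusted p under 0.05. The gene that rose was Map2k1, which encodes the kinase MEK1 that activates ERK, with 1106, 721 and 589 counts in Ctrl and 2024 and 1649 counts in Confine (2.22-fold, log2 fold change 1.15, SE 0.20, edgeR adjusted p = 0.000305). The count of higher genes in the core was 2 with DESeq2 and 3 without Ctrl replicate 2, where 10.9% and 15.5% of all tested genes did. With library size alone 6 of the 19 passed as lower, where 2805 of all 15881 tested genes did.

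Among 13 other ETS factors, 2 passed as higher (15.4%), where 12.8% of all tested genes did, and 2 as lower, where 10.2% of all tested genes did. These counts are near the shares over all tested genes, and the median log2 fold change was 0.15. Erg had 124, 171 and 177 counts in Ctrl and 34 and 59 counts in Confine (log2 fold change -1.81, SE 0.35, edgeR adjusted p = 0.000892), and it passed with every library left out in turn, between -2.40 and -1.37. Fli1, a close relative of Erg, had 57, 51 and 76 counts in Ctrl and 41 and 12 counts in Confine (log2 fold change -1.32, edgeR adjusted p = 0.042). That call was lost without Ctrl replicate 3 (log2 fold change -1.06, edgeR adjusted p = 0.13) and without Confine replicate 3 (-0.77, edgeR adjusted p = 0.363), and Fli1 was at -2.30 without Confine replicate 2. It was also lost with DESeq2 (-1.34, DESeq2 adjusted p = 0.0507) and with the repeated columns counted as 2 samples (-1.12, edgeR adjusted p = 0.0506). Ets1 and Elf4 rose 1.59-fold (edgeR adjusted p = 0.0117) and 1.54-fold (edgeR adjusted p = 0.0268). Neither Ets1 (log2 fold change 0.76, edgeR adjusted p = 0.0524) nor Elf4 (0.60, edgeR adjusted p = 0.157) passed without Confine replicate 2, nor without Confine replicate 3 (Ets1 0.57, edgeR adjusted p = 0.171, and Elf4 0.65, edgeR adjusted p = 0.132). With library size alone neither passed (Ets1 0.46, edgeR adjusted p = 0.0742, and Elf4 0.42, edgeR adjusted p = 0.139). No gene of the list then passed as higher, where 9.09% of all tested genes did. Elf4 also did not pass without Ctrl replicate 1 (log2 fold change 0.62, edgeR adjusted p = 0.0908) or without Ctrl replicate 3 (0.54, edgeR adjusted p = 0.0877).

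**Figure D4:**
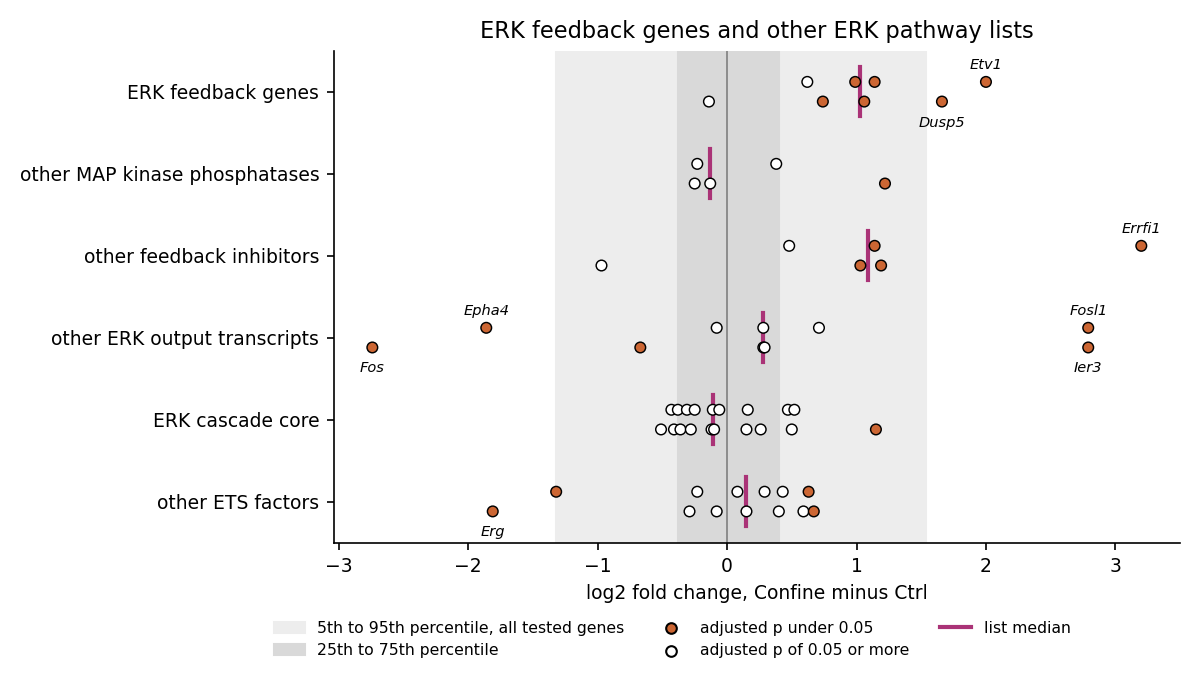
Log2 fold change (Confine minus Ctrl) of each tested gene of the ERK feedback set and of 5 further pathway lists, with list medians as vertical bars and percentiles of single genes, over all 15881 tested, as grey bands (5th to 95th from -1.32 to 1.54, 25th to 75th from -0.38 to 0.40). Filled points passed at an adjusted p under 0.05, and genes beyond a log2 fold change of 1.5 are named. The list medians are 1.03 for the ERK feedback genes, 1.08 for the other feedback inhibitors and between -0.13 and 0.28 for the other 4 lists, and the bands give no range for a median.

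The libraries held between 22287210 and 27853805 counts in Ctrl and 27290138 and 32537550 counts in Confine, and a floor of 3 counts was worth between 0.101 and 0.128 normalized CPM. Fibroblast markers were abundant, except Thy1, which reached 2 counts at most, and 5 of the 7 tested rose, with a summed level between 8730 and 9590 normalized CPM in Ctrl and between 15700 and 16500 in Confine. Of the 7 leukocyte markers Adgre1 and Cd3e were at 0, Ptprc and Itgam reached 2 and 1 counts, and the sum was between 6.89 and 7.71 normalized CPM in Ctrl and between 17.2 and 24.1 in Confine, with Cd68 higher and Lyz2 lower of 2 tested. The 5 epithelial markers summed to between 0.128 and 0.207 normalized CPM in Ctrl and between 0.0338 and 0.675 in Confine. Epcam, Krt18 and Cldn4 were at 0, Cdh1 had at most 1 count and Krt8 at most 17. The 5 endothelial markers summed to between 0.595 and 1.36 normalized CPM in Ctrl and between 2.43 and 2.7 in Confine. Vwf, the 1 tested, reached 72 counts and passed as higher, where 12.8% of all tested genes did. Kdr had at most 11 counts, Pecam1 8, Tek 5 and Cdh5 4. The part of these marker differences in the values of the ERK feedback genes was not tested.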

How the data were processed

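RNA-seq counts of 3 Ctrl and 3 Confine columns were used. The authors purified polyadenylated RNA, marked the second strand with dUTP and deposited raw counts of reads per gene. The submitters' processing notes name Trim Galore 0.6.10, HISAT2 2.1.0, SAMtools 1.5, featureCounts and mm10. Whether counting used the strand, and the annotation release, are not given in the sources used here, and both could move reads between overlapping genes. Of 55335 gene identifiers, 54587 matched GENCODE M21 with their version and 55154 without it.

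Libraries were grouped by their labels, and 0 columns were left unused. Genes were kept by filterByExpr and normalized by TMM, and Confine was tested against Ctrl in edgeR 4.0.16 (R 4.3.3) by its quasi-likelihood test, with 3 residual degrees of freedom, without a replicate block. Standard errors and 95% intervals came from the same fit. P-values were adjusted by Benjamini-Hochberg over all tested genes. The fit was tested on simulated counts. Alternatives were DESeq2 1.42.0, limma-voom (limma 3.58.1), other normalizations, filters and cutoffs, the repeated columns as 2 samples, the replicate block and each library left out. Gene copies were searched with blastn 2.17.0 (at least 95% identity over 100 bases). The 10 genes and the lists were chosen with earlier results of these data known. In each list the genes named were Phlda1, Ccnd1, Epha2 and Epha4 and up to 4 passed genes with the largest log2 fold change, with exceptions said in the text; Gab1 was also named after its values were seen. Since reads carry no molecular identifiers, floors and counts of 0 cover counting error only.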

Additional observations from a re-analysis of the deposited data

How the results depend on the processing

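The number of ERK feedback genes that passed as higher, 6, was between 5 and 7 with DESeq2, limma-voom, other normalizations, other filters, the repeated columns as 2 samples and an adjusted p under 0.01, between 4 and 7 with each library left out, and 2 with the added log2 cutoff of 1.5; none passed as lower in any of these. The counts of 7 with DESeq2 and with no filter included Dusp4, which is not among the 8 genes of the main test. A fit without Confine replicate 1 as deposited is the same fit as the main one, as its column repeats replicate 2. Genes of the other ERK lists that passed numbered 10 higher and 5 lower, where 12.8% and 10.2% of all tested genes did. These lists held 6 feedback inhibitors, 5 phosphatases, 10 output transcripts, 19 core genes and 13 ETS factors that were tested. Library size alone gave 12 lower, and leaving out each library gave between 7 and 17 higher and between 3 and 6 lower. Over all genes, 2035 passed as higher and 1619 as lower. Lower genes numbered 2805 with library size alone, 2456 with the repeated columns as 2 samples and 935 at an adjusted p under 0.01, the log2 cutoff of 1.5 gave 777 higher and 494 lower, and leaving out each library gave between 1196 and 2411 higher and between 850 and 2015 lower. Apart from changes that follow from fewer samples or a stricter cutoff, the cause was not tested. The sign of Epha2 turned to 0.05 without Ctrl replicate 1 (range -0.28 to 0.05 over libraries left out). Among the log2 fold changes of single genes under these alternatives, replicate blocks included, 318 kept direction and side of the threshold, 24 lost their call, 4 gained one and 3 changed sign. Genes near the floor of 3 counts, such as Spry1, are limited by depth.

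No sign of pairing by replicate number was seen: the correlation of same-numbered differences over 15881 genes was -0.053 with the repeated library as number 2 and 0.052 with it as number 1. With a single difference per group, this cannot show that the libraries were unpaired. With a replicate block, 6 and 7 ERK feedback genes passed as higher in these 2 pairings, Etv5 entering in the latter (0.92), 1448 and 2640 of all genes passed as higher and 1080 and 2293 as lower, and genes of the other lists that passed as higher numbered 18 with the repeated library as number 1. In the first pairing 1 other feedback inhibitor passed as lower, and Ets1 (edgeR adjusted p = 0.0532), Elf4 (0.126) and Ccnd1 (0.138) lost their calls. Phlda1 gained one in the other pairing (0.00245). Epha2 changed sign in both, to 0.08 and 0.02.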
